A study of Mus musculus with 4 samples.

Results

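Cells of clones traced for 48 h were compared with unlabelled control cells of the same 4 mice. A barcode counted as a cell where it had at least 1000 unique molecular identifiers (UMIs, each standing for 1 captured RNA molecule) on genes, at least 500 genes, a mitochondrial share under 20% and at least 60% of its hashtag counts on 1 hashtag. Of the 5452 barcodes of the series 2011 passed, and 709 of these belonged to the 48 h mice, with 76 clone cells and 633 control cells. The other 1302 cells came from 4 mice traced for 72 h. All 8 mice were Lgr5-EGFP-IRES-CreERT2;Rosa26-mTmG and received 4-OH-tamoxifen, so the control cells shared genotype and drug with the clones. Clones were sorted as GFP-high and control cells as GFP-negative from EpCAM-stained epithelium of the distal small intestine after the villi had been scraped off. A separate hashtag antibody marked the cells of each mouse, and sorted cells of all mice were mixed into 2 pools. Pool 2 held the clones of mice 1 and 2 and the control cells of mice 3 and 4, and pool 1 held the reverse, so both gates of a mouse were never in the same pool. Ages were not given in the sources used here.

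The crypt base holds stem cells that express Lgr5, a receptor that amplifies Wnt signals. Their daughters either divide further as progenitors of absorptive enterocytes, or switch on the transcription factor Atoh1 and become secretory cells: mucus-making goblet cells, antimicrobial Paneth cells, hormone-making enteroendocrine cells or chemosensory tuft cells. In this mouse line the Lgr5 promoter drives both EGFP and the tamoxifen-dependent recombinase, and recombination of the reporter turns on a membrane GFP that all progeny keep. The Lgr5-driven EGFP and the reporter's GFP are both green, and the boundary of the GFP-high gate was not given in the sources used here. How far that gate selected Lgr5-expressing cells, and how far the GFP-negative gate removed them from the control cells, was not tested. The shares of classes in a set depend on each other, so this bears on every share and gene value below, secretory ones included.

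Cell number and depth differed between the gates. The clones of mice 1 to 4 gave 4, 18, 46 and 8 cells with 77566, 428117, 184676 and 130235 UMIs, against 91 to 228 control cells with 1975221 to 5452604 UMIs per mouse. The clone of mouse 3 stood apart: its cells had a median of 1638 UMIs, against 13136 to 19518 in the other clones and 17634 to 21824 in the control sets, and 28 of its 46 cells had under 2000 UMIs. Its 46 cells were what passed of 1028 barcodes with its hashtag. In the clones of mice 1, 2 and 4, 4 of 21, 18 of 152 and 8 of 30 barcodes passed. In the control sets of mice 1 to 4, 152 of 234, 91 of 159, 228 of 581 and 162 of 255 passed. In the clone of mouse 2, 1 barcode of 131899 UMIs made up 30.8% of the sum. Sex-linked RNA matched between the gates: mouse 1 had 18 Y-linked UMIs and no Xist UMI in its clone and 501 and 11 in its control cells, while the clones and control cells of mice 2 to 4 had more Xist than Y-linked UMIs. The pools shared 1 barcode sequence among all barcodes and 0 among the cells of the 48 h mice. Fewer cells of a type and less RNA per cell cannot be told apart in the summed counts used below. Intervals and limits from counts cover counting error only.

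**Figure D1:**
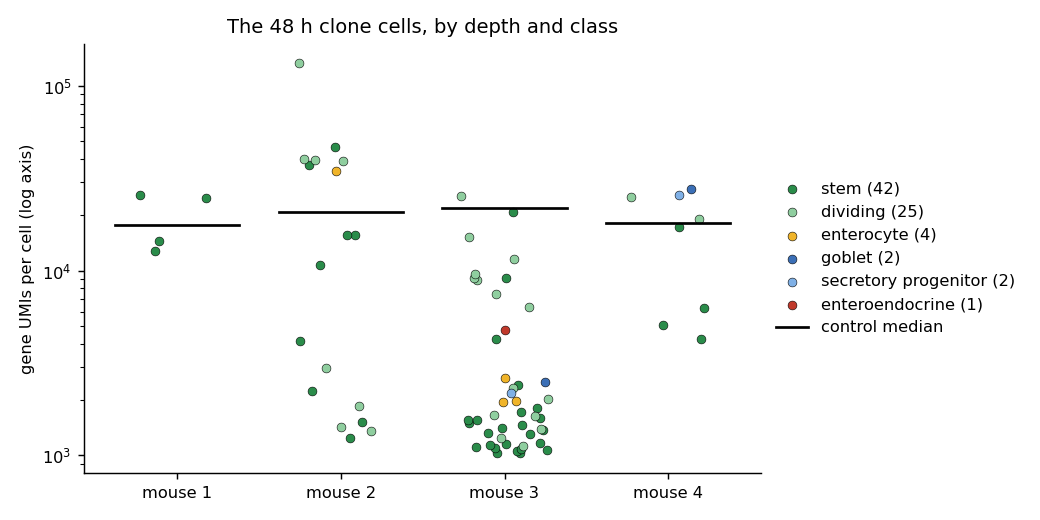
Each point is 1 of the 76 clone cells traced for 48 h, placed by mouse and by its gene UMIs on a log axis and coloured by class, and each bar is the median of that mouse's control cells. Most cells of mouse 3 lie far below the control median, and the deepest cell belongs to mouse 2.

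Clones held a larger share of cells in stem clusters and a smaller share in secretory clusters than the GFP-negative control cells in each of the 4 mice. Clusters were named from marker genes, and the stem clusters held 4 of 4, 9 of 18, 25 of 46 and 4 of 8 clone cells of mice 1 to 4 (Wilson 95% intervals 51.0 to 100%, 29.0 to 71.0%, 40.2 to 67.8% and 21.5 to 78.5%). The control sets of the same mice had 10.5%, 10.99%, 15.4% and 22.2% stem cells. The means were 63.6% ± 24.4 (SD, n = 4) in clones and 14.8% ± 5.42 (SD, n = 4) in control cells, and the groups did not overlap. The difference of 48.8 percentage points had an exact two-sided permutation p of 0.0286, the smallest that 4 against 4 can give, and 0.0762 after Benjamini-Hochberg adjustment over 8 classes. An exact sign-flip test within mice gave 0.125, which is the smallest that 4 pairs allow. Of the 25 stem cells of the mouse 3 clone, 21 had under 2000 UMIs. Of all 46 cells of that clone, 6 had an Lgr5 UMI, 36 Olfm4 and 30 Muc2. Over the 4 clones, 17 of 42 cells of stem clusters had an Lgr5 UMI and 29 a Muc2 UMI, at a median depth of 1648 UMIs. For control cells of these clusters it was 75 and 29 of 97, at a median of 14730 UMIs. The cluster name of such shallow cells is thus not borne out by Lgr5 in most of them. Among cells with at least 2000 UMIs the stem shares of the clones were 4 of 4, 53.8%, 22.2% and 50.0%, and the highest control share was 22.9%, so that the groups then overlapped. With cells clustered anew, the difference was 23.9 points at a hashtag limit of 50%, 24.8 with HTODemux calls, 25.7 from 500 UMIs up and 8.10 at a mitochondrial limit of 50%, with exact permutation p = 0.0571, 0.0857, 0.343 and 0.0571. It was 27.9 at a cluster resolution of 1.5 and 23.1 with cells classed by marker share alone (exact permutation p = 0.0286 each).

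Secretory cells of all kinds were 5 of 76 clone cells and 232 of 633 control cells. The clones of mice 1 and 2 had 0 of 4 and 0 of 18, with Wilson upper bounds of 49.0% and 17.6%, and those of mice 3 and 4 had 3 of 46 (6.52%) and 2 of 8 (25.0%). Their control sets had 36.2%, 41.8%, 29.8% and 43.8%. The mean was 7.88% ± 11.8 (SD, n = 4) in clones and 37.9% ± 6.28 (SD, n = 4) in control cells, a difference of -30.0 percentage points (exact permutation p = 0.0286, sign flips 0.125), with the share lower in 4 of 4 mice and no overlap. It was -10.3 points at a mitochondrial limit of 50% and -12.8 with cells classed by marker share alone (exact permutation p = 0.143 each).

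The 5 secretory clone cells fell into the goblet cluster (2), the secretory progenitor cluster (2) and the enteroendocrine cluster (1). Single cells did not always carry the markers of these names. In mouse 4, the cell of the progenitor cluster had 897 Tff3, 131 Muc2, 97 Zg16, 2 Atoh1 and 0 Dll1 UMIs. The cell of its goblet cluster had 794, 192, 0, 2 and 7. In mouse 3, the cell of the progenitor cluster had 2175 UMIs, with 0 Atoh1 and 0 Dll1. No Paneth or tuft cell was found among the 76, which allows a share of up to 3.95%, against 17 Paneth and 13 tuft cells among 633 control cells. The secretory progenitor cluster made up 3.67% ± 5.98 of clone cells and 15.5% ± 2.90 of control cells (SD, n = 4 each). That difference had an exact permutation p of 0.0286, adjusted 0.0762. The cluster's 10 leading genes included Dll1, Creb3l1, Spdef and Atoh1, but also the goblet gene Agr2. Its 50 leading genes held 6 progenitor and 6 goblet markers, a tie broken after seeing the data. The goblet share differed by -11.3 percentage points (exact permutation p = 0.0571, adjusted 0.114). For goblet and progenitor cells together the difference was -23.1 (exact permutation p = 0.0571). Both shares were lower in 4 of 4 clones but overlapped between groups. Enterocytes were fewer in 4 of 4 clones (3.02% ± 3.51 against 11.5% ± 3.78, SD, n = 4 each; exact permutation p = 0.0286, adjusted 0.0762). Dividing cells were 25 of 76 and 229 of 633. Their share was lower in 2 mice and higher in 2, and the difference of -10.4 percentage points was within the spread between mice (exact permutation p = 0.429).

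**Figure D2:**
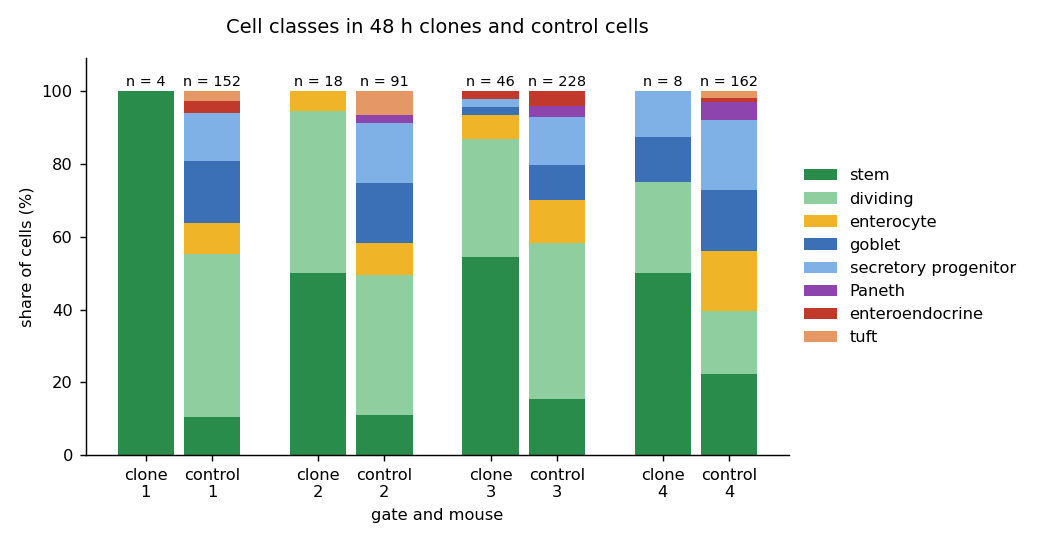
Stacked bars give the share of cells (%) in each class for the clone and the control cells of each 48 h mouse, with the number of cells above each bar. Cells of stem clusters take up 50.0% or more of each clone and 22.2% or less of each control set. The 2 secretory cells of the mouse 4 clone give it the largest secretory share of the clones.

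Across 10642 tested genes, counts summed per mouse and gate gave 129 called genes (1.21% of those tested) with edgeR's quasi-likelihood test paired by mouse, at a Benjamini-Hochberg adjusted p under 0.05. Of these, 15 were higher in clones (0.141%) and 114 lower (1.07%). The median log2 change was -0.06 over all tested genes, 0.93 over the genes called higher and -1.30 over those called lower. In CPM, the gene counts of each sum scaled to 1 common total, 97 of the 114 lower genes were below control in 4 of 4 mice and 11 of the 15 higher genes were above it in 4 of 4. The 4 clone and the 4 control values did not overlap for 69 of the lower and 7 of the higher genes, and for 8.47% of all tested genes. The calls rest on the pairing: without the mouse as a block, 2 genes were called (Guca2b lower and Esr1 higher), with 1261 genes at an unadjusted p under 0.05, against 1386 with the block. Leaving out mouse 1, 2, 3 or 4 gave 17, 21, 63 and 281 calls, and thinning each pair to equal depth gave 9. DESeq2 with the block called 49 genes higher and 124 lower.

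The stem list had the most members called higher in clones. All 15 tested members of the stem list had a positive log2 change, with a median of 0.60, and 3 were called higher: Lgr5, Olfm4 and Pdgfa. The list's share of all gene UMIs was 0.834%, 0.670%, 0.490% and 0.368% in the clones and 0.272% to 0.340% in the control sets.

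Lgr5 (chromosome 10, 115450311 to 115587780, minus strand, GRCm38), the stem-cell receptor whose promoter drives the reporter system, was at 155, 152, 48.7 and 154 CPM in the clones of mice 1 to 4 and at 28.9, 51.6, 45.9 and 61.4 CPM in their control cells. The clones of mice 1, 2 and 4 were above all control values, whereas the clone of mouse 3 lay among them. The log2 change was 1.29 (SE 0.30, edgeR adjusted p = 0.0353), higher in 4 of 4 mice. With each cell thinned to 4000 UMIs, which left out 41 clone and 38 control cells, Lgr5 was found in 12 of 35 clone cells (34.3%, Wilson interval 20.8 to 50.8%) and 79 of 595 control cells (13.3%, 10.8 to 16.2%), and in 0 of 71 control enterocytes, which allows up to 4.23%. Before thinning the shares were 28.9% and 25.8%, at median depths of 2437 and 19351 UMIs, and 1.33% in enterocytes at a median of 25396.

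Olfm4, which encodes a secreted glycoprotein and marks crypt-base cells, was at 5144, 3478, 2019.8 and 1305 CPM in the clones and 1005, 1500.1, 1537 and 1309 CPM in control cells. Mice 1, 2 and 3 were above all control values and in mouse 4 both gates were at nearly the same level. Its log2 change was 0.92 (SE 0.22, edgeR adjusted p = 0.0464), and the call was lost in 10 of the 21 alternatives. Pdgfa, a platelet-derived growth factor subunit that was among the leading genes of 1 stem cluster, was at 219, 297, 233 and 138 CPM in clones and 70.6 to 129 CPM in control cells, without overlap (log2 change 1.12, SE 0.23, edgeR adjusted p = 0.0175). Ascl2, a transcription factor of Lgr5+ cells, had only 22 UMIs over the 4 clones and was not called (log2 change 0.59, SE 0.41, edgeR adjusted p = 0.610).

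Axin2, a direct Wnt target and feedback inhibitor, was the member of the Wnt target list that was called, 1 of 11 tested, with a list median of 0.32. It stood at 297, 229, 162 and 238 CPM in clones and at 118, 116, 88.8 and 103 CPM in control cells. Every clone value was above every control value (log2 change 1.02, SE 0.17, edgeR adjusted p = 0.00574, higher in 4 of 4 mice). Sox9, a transcription factor of crypt-base cells, and Ccnd2, a G1 cyclin, were not called (0.44, SE 0.18, and -0.40, SE 0.16).

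Genes of DNA replication licensing were also among the higher genes, although mitotic genes were not. Of 18 tested G1/S genes, 15 had a positive change, with a median of 0.57, and Mcm5 and Hells were called. Mcm5, a subunit of the replicative helicase, was at 51.6, 105, 92.1 and 38.4 CPM in clones and 17.2 to 40.2 CPM in control cells (log2 change 1.31, SE 0.24, edgeR adjusted p = 0.00801, with 1 clone value inside the control range). Hells, a chromatin remodelling helicase, was at 146 to 179 CPM in clones and 55.0 to 126 CPM in control cells, without overlap (0.79, SE 0.18, edgeR adjusted p = 0.0338). Cdt1, which loads that helicase, was called too (1.54, SE 0.38, edgeR adjusted p = 0.0488, higher in 3 of 4 mice), from 42 UMIs over the clones. Of 19 tested G2/M genes, none was called and the median was -0.37. Mki67, a proliferation marker, was at 38.7, 313, 439 and 46.1 CPM in clones and 195 to 426 CPM in control cells, low in the clones of mice 1 and 4 and within the control range in mouse 2 (-0.69, SE 0.30, edgeR adjusted p = 0.316).

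The remaining higher genes belonged to no common list. Zfp703, a transcriptional corepressor, Zfp36l2, an RNA-binding protein that promotes mRNA decay, and Dab2ip, a Ras GTPase-activating protein, were above control without overlap (log2 changes 0.93, 0.69 and 0.77). Ifitm3, an antiviral membrane protein, was called (0.92, SE 0.20, edgeR adjusted p = 0.0273), as the only called member of 8 tested interferon genes. Esr1, the oestrogen receptor, rested on 26 clone and 21 control UMIs, at 12.9, 51.4, 5.41 and 15.4 CPM in clones and 0.734 to 2.54 CPM in control cells (3.65, SE 0.60, edgeR adjusted p = 0.00511). A domain of this receptor is part of the CreERT2 protein, and counts of the gene and of the transgene could not be told apart. Gm10800, a predicted gene, had 58 and 65 UMIs in the clones of mice 2 and 3 and 0 in those of mice 1 and 4 (5.67, SE 0.77, edgeR adjusted p = 0.00101), with 38.2% of its clone UMIs in 1 cell. Esr1 and Gm10800 were singled out after their values were seen.

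**Figure D3:**
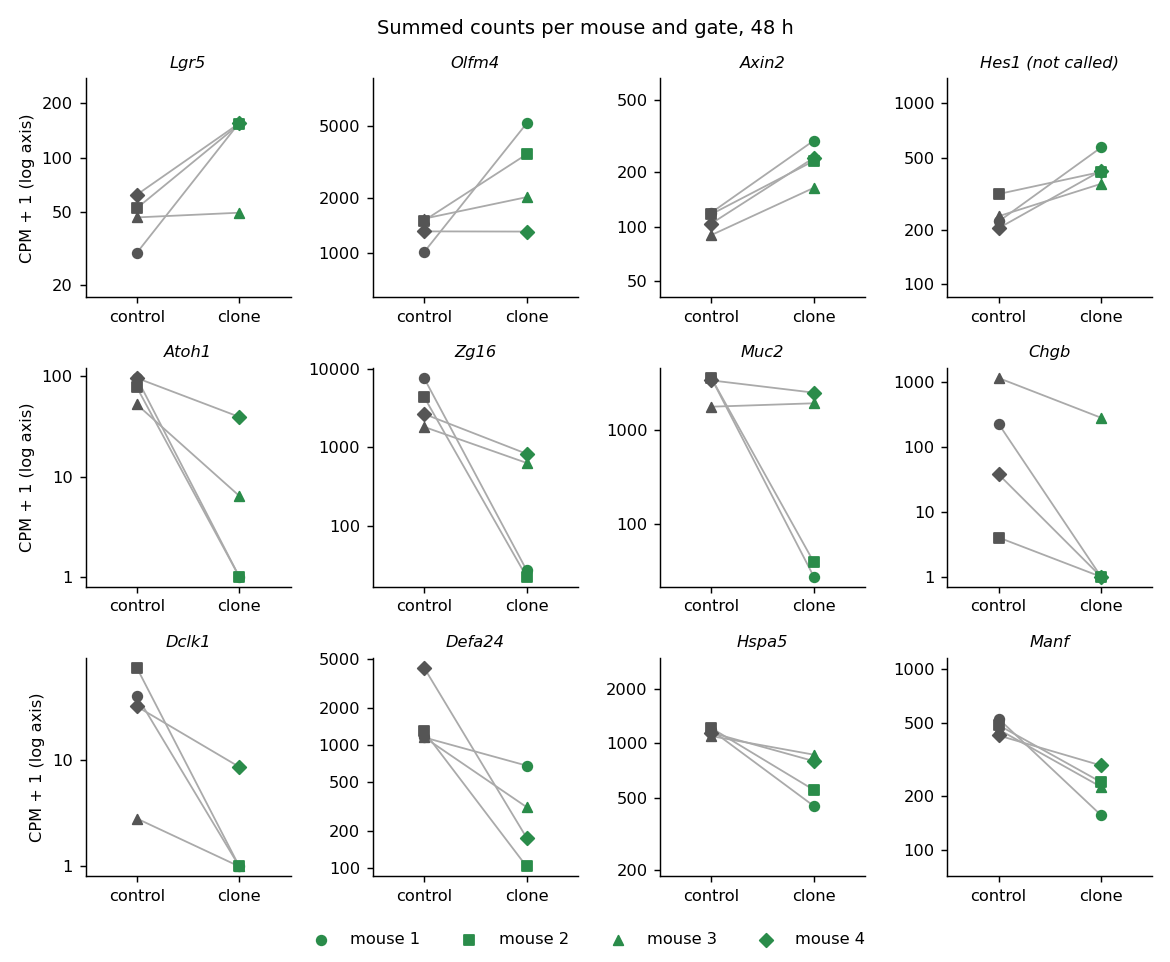
Each panel shows 1 gene, with CPM + 1 on a log axis for the control cells (grey) and the clone (green) of each mouse, joined by a line. Lgr5, Olfm4 and Axin2 rise from control to clone in most mice, Hes1 was not called, and the secretory and ER folding genes shown fall in most mice.

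Of 11 tested members of the secretory progenitor list 3 were called lower in clones and 0 higher, with a median of -1.63, and 3 had a positive change. The list's summed share of UMIs overlapped between groups, at 0.0482% to 0.0875% in clones and 0.0737% to 0.0963% in control sets. Atoh1 (chromosome 6, 64729125 to 64731245, plus strand, GRCm38), the transcription factor required for all secretory lineages, was at 0, 0, 5.41 and 38.4 CPM in the clones of mice 1 to 4 and at 95.1, 77.0, 51.5 and 95.3 CPM in their control cells. The clones were below all control values, and mouse 4, with its 2 secretory cells, was the nearest to them (log2 change -3.40, SE 0.54, edgeR adjusted p = 0.00388). The 6 clone UMIs came from 4 cells. After thinning to 4000 UMIs, Atoh1 was found in 0 of 35 clone cells, which allows up to 8.57%, in 115 of 595 control cells (19.3%, Wilson interval 16.4 to 22.7%) and in 3 of 71 control enterocytes (4.23%).

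Creb3l1, a membrane-bound transcription factor of secretory cells, and Hepacam2, a marker of secretory progenitors and tuft cells, were also called lower (log2 changes -1.75 and -2.16). Sox4, a transcription factor of early secretory and tuft progenitors, was at 284, 311, 168 and 276 CPM in clones and 114 to 151 CPM in control cells, without overlap, and was not called (0.88, SE 0.23, edgeR adjusted p = 0.0637). Dll1, the Notch ligand of early secretory cells, was not called: it was at 0, 21.0, 10.8 and 76.8 CPM in clones and 46.4 to 55.2 CPM in control cells, with mouse 4 above control (-0.98, SE 0.38, edgeR adjusted p = 0.260). Hes1, the Notch target that represses Atoh1, was at 567, 416, 357 and 422 CPM in clones and 203 to 314 CPM in control cells. Its values did not overlap, yet it missed the threshold (0.75, SE 0.19, edgeR adjusted p = 0.0522), and none of the 10 tested Notch genes was called.

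The goblet list had the most called members. All 15 tested goblet genes had a negative change, with a median of -2.45, and 8 were called lower. Zg16, a lectin of the mucus layer (chromosome 7, 127050156 to 127087328, minus strand, GRCm38), was at 25.8, 21.0, 634 and 829 CPM in clones and 7764, 4447, 1837 and 2691 CPM in control cells. All clone values were below all control values (log2 change -3.97, SE 0.66, edgeR adjusted p = 0.00554).

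Muc2, the gel-forming mucin, was at 25.8, 37.4, 1949 and 2534 CPM in clones and at 3632, 3639.6, 1791 and 3433 CPM in control cells. It was far below control in mice 1 and 2 and within the control range in mice 3 and 4 (-2.74, SE 0.64, edgeR adjusted p = 0.0377, lower in 3 of 4 mice). The mucus peptide Tff3 and the disulphide isomerase Agr2 were below all control values in mice 1, 2 and 3, at 116 to 1229 and 90.2 to 1159 CPM, whereas in mouse 4 both clone values exceeded that mouse's control value (log2 changes -3.33 and -3.45). Few cells carried these counts. In the mouse 4 clone, 1 cell of the goblet cluster held 58.2% of the Muc2 UMIs. There, 1 cell of the secretory progenitor cluster held 89.8% of the Zg16 UMIs. In the mouse 3 clone, 69.2% of the Muc2 UMIs came from 1 cell of a dividing cluster, which had 15132 UMIs, 249 of them Muc2, 20 Mki67, 2 Dll1 and 1 Atoh1. No doublet caller was run, and 83.7% of that cell's hashtag counts were on its own hashtag.

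The enteroendocrine list had the lowest median of the lists. All 11 tested members were negative, with a median of -4.87, or -4.29 with genes absent from clones set at the fold that 3 counts over the clones allow, and 6 were called lower. Chgb, a granin of hormone granules (chromosome 2, 132781278 to 132795079, plus strand, GRCm38), was at 0, 0, 282 and 0 CPM in clones and at 226, 3.04, 1158 and 36.9 CPM in control cells. In each mouse the clone was lower, and 50 of the 52 clone UMIs came from the 1 enteroendocrine cell, in mouse 3 (log2 change -6.57, SE 0.39, edgeR adjusted p = 1.87e-09). The pooled level was 7.99-fold lower, far less than the fitted change, and the call was lost with DESeq2 (-4.36, DESeq2 adjusted p = 0.0503), without the pool term (-2.54, edgeR adjusted p = 0.372) and without the mouse block (-3.27, edgeR adjusted p = 0.564). Gcg, the proglucagon gene, had 2 clone UMIs against 2028 in control cells, a pooled ratio of 58.8-fold (95% counting interval 16.2 to 485), and its control values ran from 0.506 to 364 CPM. Chga, Neurod1, Sct and Tac1 were the other called members (-5.41, -4.73, -2.54 and -2.41). Neurog3, which starts this lineage, had 0 clone UMIs and 131 in control cells, 0 of them in mouse 2, and was not called (edgeR adjusted p = 0.449).

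All 10 tested tuft genes were negative, with a median of -3.88, or -3.17 with genes absent from clones set at the same bound, and 4 were called. Dclk1, the kinase that marks tuft cells, was at 0, 0, 0 and 7.68 CPM in clones, which is 1 UMI, and at 39.5, 73.9, 1.83 and 31.3 CPM in control cells (pooled ratio 22.8-fold, counting interval 4.06 to 902). Control values were lowest in mouse 3, where no control tuft cell was found, so that mouse added little to the difference.

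Among 13 tested Paneth genes 3 were called lower, with a median of -1.45. Defa24, an alpha-defensin, was at 683, 103, 314 and 177 CPM in clones and 1158, 1295, 1164 and 4270.3 CPM in control cells, without overlap (log2 change -2.75, SE 0.46, edgeR adjusted p = 0.00554). The alpha-defensins are near-identical copies, so reads may be split among them. Lyz1, the Paneth lysozyme, was lower in 3 of 4 mice and lost its call in 17 of 21 alternatives (-2.13, SE 0.52, edgeR adjusted p = 0.0482). No clone cell fell into the Paneth cluster, and Defa24 UMIs were found in 43 of the 76 clone cells, with at most 34 in 1 cell.

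**Figure D4:**
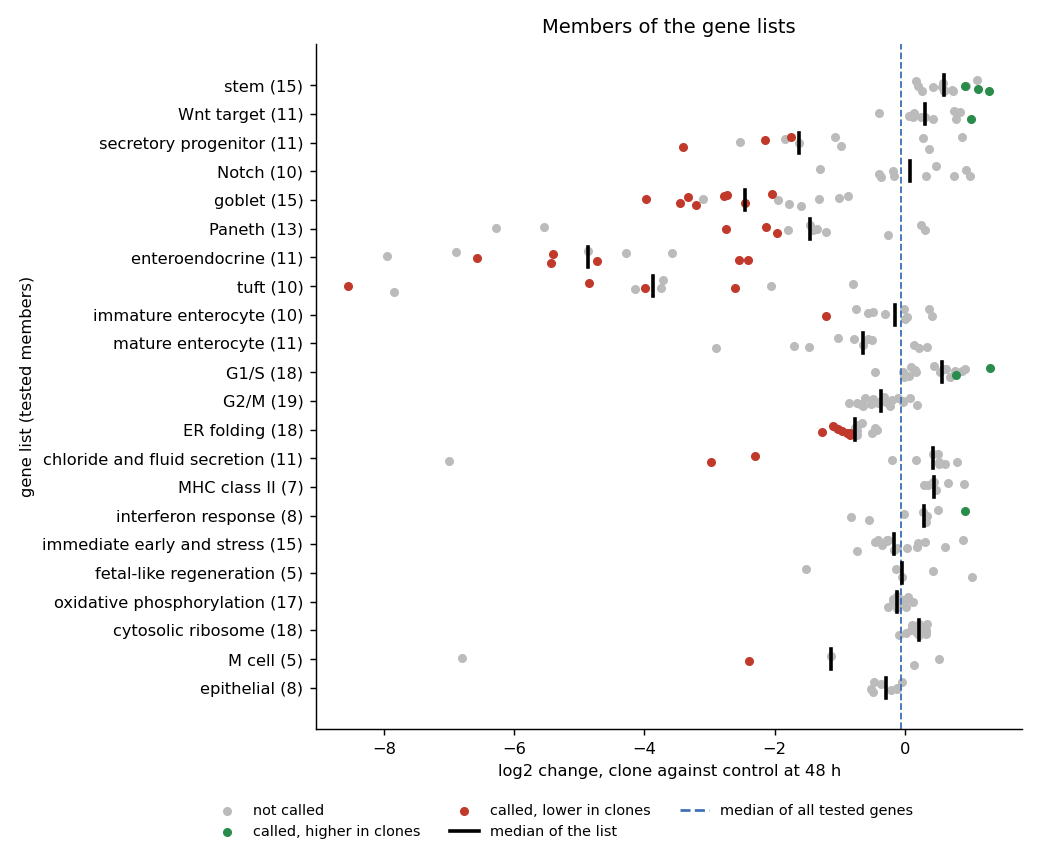
Each point is a tested member of a gene list, placed by its log2 change between clones and control cells at 48 h, coloured by whether it was called, with the list's median as a black bar and the median of all tested genes as a dashed line. The 4 secretory lineage lists and ER folding lie to the left, the stem, Wnt target and G1/S lists to the right.

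Chaperones and other folding genes of the endoplasmic reticulum (ER), which secretory cells use to load their granules, were lower by a smaller and more even amount. All 18 tested members were negative, with a median of -0.76, and 7 were called lower. Their summed share of gene UMIs was 0.322%, 0.550%, 0.565% and 0.734% in the clones and 0.851% to 0.922% in the control sets, without overlap. Hspa5 (chromosome 2, 34771970 to 34777547, plus strand, GRCm38), the main ER chaperone BiP, was at 451, 554, 866 and 799 CPM in clones and 1184, 1215, 1097 and 1145 CPM in control cells (-0.89, SE 0.17, edgeR adjusted p = 0.012). Manf, a secreted ER stress protein, was at 155, 236, 222 and 292 CPM against 427 to 528 CPM (-1.10, SE 0.19, edgeR adjusted p = 0.00574). For both genes every clone value was below every control value. Xbp1, the transcription factor that drives these genes, was lower in 4 of 4 mice (-1.03, SE 0.24, edgeR adjusted p = 0.0383). Pdia3, Pdia6, Creld2 and Sec61b were the other called members, with log2 changes of -0.84 to -1.27. These 4 lost the call in 13, 11, 10 and 7 of 21 alternatives, Xbp1 in 11, Hspa5 in 5 and Manf in 4. In cells outside the secretory clusters, a subset described below, the median of the 18 members was -0.50 and only Manf was called. Within the stem clusters 14 members were tested, with a median of -0.006 and none called.

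The ER stress response element is the promoter sequence through which such genes are classically induced. Among genes called lower that have a RefSeq promoter entry (GRCm38.p6), 3 of 86 (3.49%) held the full element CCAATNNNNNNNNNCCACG on either strand in the 250 bases before the start, namely Hspa5, Creld2 and Pdia6. It was found in 35 of 27025 genes (0.130%), in 7 of 16 entries of the ER folding list and in 0 of 11 genes called higher. All 3 genes are members of that list, so the 3.49% is not separate from the list's calls. A match describes these letters and shows no binding. The stretches around the 3 matches are shown 5′ to 3′ on the gene's strand, with the element in capitals. Counted from the RefSeq start, it ends 47 bases upstream in Hspa5 and 80 in Pdia6, and in Creld2 it lies on the opposite strand, 108 bases upstream. The RefSeq start of Hspa5 (34772090) lies inside the GENCODE gene span given above, so the stretch does too, and that of Pdia6 (17266589) lies after the GENCODE start (17266545).
Hspa5, chr2:34771980-34772088, plus strand: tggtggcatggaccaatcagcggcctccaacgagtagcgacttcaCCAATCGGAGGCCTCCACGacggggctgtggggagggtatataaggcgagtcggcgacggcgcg
Pdia6, chr12:17266446-17266554, plus strand: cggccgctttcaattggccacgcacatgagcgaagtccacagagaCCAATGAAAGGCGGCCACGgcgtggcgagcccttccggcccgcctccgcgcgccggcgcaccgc
Creld2, chr15:88819475-88819583, plus strand: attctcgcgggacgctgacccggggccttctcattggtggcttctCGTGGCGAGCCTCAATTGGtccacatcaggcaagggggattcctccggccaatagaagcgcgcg

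Of the 114 lower genes, 79 belonged to none of the lists. Among those named after their values were seen were Serp1, Mia3, Kdelr2, Lman1 and Rrbp1, which act in ER membrane stability, cargo export, retrieval and ribosome binding (log2 changes -1.25, -1.39, -1.27, -1.04 and -1.03). Adh1, an alcohol dehydrogenase, Syt7, a calcium sensor of vesicle fusion, and Hid1, a protein of dense-core granule formation, had 1, 2 and 3 clone UMIs. Their pooled levels were lower 13.3-fold, 13.6-fold and 7.78-fold, with counting intervals of 2.36 to 526, 3.76 to 113 and 2.64 to 37.9. Guca2b, which encodes the peptide uroguanylin, was at 0, 16.4, 43.3 and 7.68 CPM in clones and 131 to 152 CPM in control cells. It was below control without overlap (-2.98, SE 0.40, edgeR adjusted p = 0.000862) and kept its call in 19 of 21 alternatives, more than any other named gene. Its paralogue Guca2a was the other called member of 11 tested genes of chloride and fluid secretion.

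Lists of other cell types gave few or no calls. Of 10 immature and 11 mature enterocyte genes 1 was called lower, the antimicrobial lectin Reg3g (-1.22, SE 0.23, edgeR adjusted p = 0.012), at 206, 2903, 1765 and 937 CPM in clones and 631, 3211, 3682 and 4385 CPM in control cells, with values that overlapped between groups. All 7 MHC class II genes had a positive change, with a median of 0.44 and none called. Cd74, the chain that guides class II assembly, was at 2707, 2294, 1467 and 1175 CPM in clones and 842 to 1696 CPM in control cells, higher in 2 of 4 mice. None of 15 stress, 17 respiratory chain or 18 ribosomal protein genes was called. The 8 epithelial genes, Epcam included, had none called and a median of -0.30. Immune, endothelial and stromal genes made up at most 0.00271% of the UMIs of any sum, and the haemoglobin genes Hba-a1, Hba-a2 and Hbb-bs were at 0. Mature enterocyte markers were scarce in both gates: Fabp1 had 0 clone and 57 control UMIs and Alpi 2 and 36.

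The same comparison was run on 2 subsets of cells. Outside the secretory clusters, which left out 5 clone and 232 control cells, 80 of 10037 genes were called (0.797%), 17 higher and 63 lower, and 21 of them had also been called in all cells. Lgr5, Axin2, Pdgfa and Mcm5 stayed higher there (0.88, 0.72, 0.84 and 0.95 log2). Lgr5 was close to the threshold (edgeR adjusted p = 0.0496) and below control in mouse 3, at 51.4 against 64.4 CPM. With at least 2000 UMIs per cell Lgr5 was not called (edgeR adjusted p = 0.0673), while Axin2, Pdgfa and Mcm5 still were. Of the 8 goblet genes called in all cells, Agr2, Tff3 and Spink4 stayed lower (-2.20, -1.88 and -1.91), while Zg16, Clca1, Fcgbp, Ern2 and Muc2 lost the call. Spink4 was higher in the clone of mouse 3, at 2442 against 963 CPM. Of 10 Paneth genes 2 were called, the lectin Itln1 and Defa17, both higher in clones (1.80 and 2.44), and Defa24 was at 0.34, opposite in sign to its change in all cells. Defa17 was at 0 CPM in the clone of mouse 4. With at least 2000 UMIs per cell it was not called (edgeR adjusted p = 0.113), while Itln1 was. Mitotic genes came out lower, with 6 of 19 G2/M genes called and a median of -0.85, and 15 histone genes were called lower. Leaving out secretory cells also changed the make-up of the sums: dividing cells were then 25 of 71 clone cells (35.2%) and 229 of 401 control cells (57.1%). For mice 1 to 4 their shares were 0%, 44.4%, 34.9% and 33.3% in clones and 70.1%, 66.0%, 61.25% and 30.8% in control cells. Mouse 4 thus went the other way from the pooled shares. The part of this make-up in the mitotic genes was not tested. Mki67 was at 38.7, 313, 456 and 78.0 CPM in these clones and at 623, 625, 510.4 and 304.6 CPM in control cells. As a ratio the gap was widest in mice 1 and 4, the mice with the fewest clone cells. As a difference in CPM it was widest in mice 1 and 2. Fabp6, an ileal bile acid binding protein of enterocytes, was at 38.7, 2742, 1090 and 52.0 CPM against 3482 to 7067 CPM (-2.66, SE 0.37, edgeR adjusted p = 8.84e-06). Without the mouse block 1 gene was called, and leaving out 1 mouse gave 40 to 129 calls.

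Within the stem clusters, 9 of 4274 genes were called (0.211%), 8 higher and 1 lower, with 42 clone cells. None of the 13 stem genes tested there was called, and their median was -0.19. These clusters were named from stem markers such as Lgr5 and Olfm4, so cells of both gates were picked through such genes. The comparison of stem genes within them, Lgr5 included, therefore cannot decide whether stem cells of the gates differ in these genes. Lgr5 was at 155, 319, 141 and 579.8 CPM in the stem cells of the clones and at 189, 235, 265 and 277 CPM in those of the control sets, below control in mice 1 and 3 and above it in mice 2 and 4. After thinning to 4000 UMIs, Lgr5 was found in 10 of 17 clone stem cells (58.8%) and 47 of 84 control stem cells (56.0%). The goblet genes Fcgbp, Muc2, Tff3, Zg16, Agr2 and Spink4, and Guca2a, were called higher in clones within these clusters, opposite to their direction in all cells. Only Muc2 was higher in 4 of 4 mice; in mouse 1 the other 6 were below control, and Zg16 was below it in mouse 2 too. Muc2 was at 25.8, 74.3, 1171 and 183 CPM in the stem cells of the clones and at 14.2, 47.0, 39.2 and 20.7 CPM in those of the control sets. It was highest in the clone of mouse 3, of whose 25 stem cells 21 had under 2000 UMIs, and where the nuclear RNA Neat1 was also highest, at 2936 CPM against 229 to 854 CPM in the other stem cells. With at least 2000 UMIs per cell, Muc2, Zg16 and Spink4 were no longer called (log2 changes 1.23, 0.26 and 0.70, edgeR adjusted p = 0.775, 0.999 and 0.610). Guca2a, Fcgbp, Tff3 and Agr2 still were (2.80, 2.49, 1.41 and 1.40, edgeR adjusted p = 1.63e-05, 0.00141, 0.00843 and 0.0405), from 4, 7, 4 and 4 clone cells per mouse. All 4 of these genes were below control in mouse 1, and Tff3 was at 219 CPM in the clone and 220.1 CPM in the control cells of mouse 3, so that it was higher in 2 of 4 mice. The part of RNA released from other cells in these values was not tested.

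**Figure D5:**
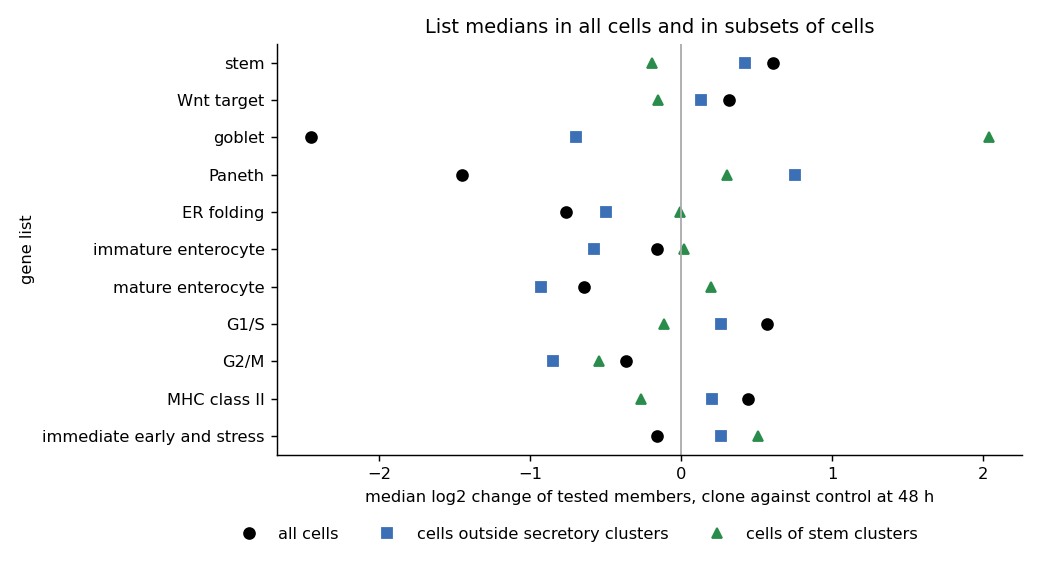
Points give the median log2 change of the tested members of 11 gene lists between clones and control cells at 48 h, in all cells, in cells outside the secretory clusters and in cells of the stem clusters. The goblet median runs from -2.45 in all cells to 2.03 in the stem clusters, while the stem list lies at 0.60 and -0.19. Genes were filtered anew in each subset, so the medians are over different members. For goblet 15 were tested in all cells and 7 in the stem clusters, and for stem 15 and 13. The stem clusters were themselves named from stem markers.

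The clone effect at 48 h was set beside that in the 4 mice traced for 72 h, with 656 clone and 646 control cells, by a test of the difference between both effects in the same fit. At 72 h 267 genes were called (2.51%), and 33 genes were called in the same direction at both times, 25.6% of the 48 h calls and 12.4% of the 72 h calls. The difference itself was called for 2 genes, both enteroendocrine. Chgb was lower in clones by -6.57 (SE 0.39) at 48 h and -4.11 (SE 0.25) at 72 h, and Gcg by -5.43 (SE 0.58) and -1.13 (SE 0.36), with edgeR adjusted p = 0.0317 for both differences. Both differences rest on few libraries. At 48 h the clones held 52 and 2 UMIs, and at 72 h 2251 of 2262 Chgb UMIs and 2517 of 2524 Gcg UMIs of the clones came from mouse 8. Pooled Chgb levels were 7.99-fold lower in clones at 48 h and 1.65-fold lower at 72 h, where the clones of mice 7 and 8 were above their control cells. Pooled Gcg was 58.8-fold lower at 48 h and higher in clones than in control cells at 72 h, at 184 against 120.1 CPM.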

How the data were processed

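Single-cell RNA and hashtag antibody libraries were deposited as 1 matrix per pool. Per the file headers, the authors' values are raw UMI counts per gene and counts per hashtag, with no normalization. The submitters' processing notes name Cell Ranger 6.1.2 and mm10. The lists of features and barcodes, as deposited, hold other content (identifiers). The authors' cell filters and hashtag caller are not given in the sources used here. Cells, members and gene lists were chosen with earlier results of these data known.

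Hashtag and pool gave mouse and gate, per the labels. Both gates of a mouse come from 1 animal, so mice were pairs: within a mouse, deviations of both gates from their group means correlated at 0.078 to 0.464 in the 48 h mice. Counts were summed per mouse and gate and all 16 sums fitted in edgeR 4.0.16 (run in R 4.3.3, with filterByExpr, TMM scaling and the two-sided quasi-likelihood test) with mouse, pool and the clone effect at each time, leaving 5 residual degrees of freedom. Cells were clustered in scanpy 1.11.5 (python 3.11.15; 2000 variable genes, 30 components, 15 neighbours, resolution 1.0) over all 2011 cells and named where at least 3 fixed markers were among the 50 leading genes. A tie between goblet and secretory progenitor for 1 cluster was broken by the markers among its 10 leading genes, a choice made after seeing the data. The 26 gene lists are described by counts and medians.

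Named genes were up to 10 called genes each way with the largest change (average log2 CPM 4 or more, groups not overlapping), all called list members, each list's 3 members of highest mean CPM and a fixed set of 15. No doublet caller was run within a mouse. The hashtag rule limits mixtures of mice but need not remove all of them, since a kept cell may hold some counts of other hashtags. In simulated counts for this comparison on 10642 genes, rises of 1 and 2 (log2) were recovered in 46% and 96% of genes and falls in 18% and 48%, with 8 false calls. Alternatives used DESeq2 1.42.0, limma 3.58.1 (log2 of the mean share of a cell's counts, pseudocount 0.1 on the scale of the mean) and HTODemux (Seurat 5.3.0, quantile 0.99). Positions are from GENCODE M21, where all 178 genes looked up had the same identifier and name.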

Additional observations from a re-analysis of the deposited data

Results flagged for a closer look

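In 9 of 60 groups of 4 sums or shares, the highest or lowest mouse lay farther from the rest than Dixon's 95% limit. For normally distributed values chance gives this in about 1 of 20 groups. Where all values but 1 are 0, as for Adh1 and Dclk1 in the clones, the group is always flagged. The 9 of 60 therefore cannot be set against that rate. Among clones, Lgr5 was lowest in mouse 3 at 48.73 CPM, Adh1 was highest in mouse 2 at 2.336 CPM and Dclk1 in mouse 4 at 7.678 CPM, each of the last 2 from 1 UMI. The stem share of 100% in the clone of mouse 1, from 4 cells, stood above those of the other clones. Among control sets, Defa24 was highest in mouse 4 at 4270 CPM, Sct in mouse 1 at 323.6 CPM and Ascl2 in mouse 2 at 22.78 CPM. Muc2 at 1791 CPM and Adh1 at 2.751 CPM were lowest in mouse 3. The clone effect differed between 72 h and 48 h, by a test of the difference itself in edgeR, for Gcg by 4.304 and for Chgb by 2.468 on the log2 scale.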

How the results depend on the processing

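The count of 129 called genes (15 higher, 114 lower) depended on the fit. It was 2 without the replicate block (1 higher, 1 lower), 259 on the 48 h sums alone (34 and 225), 58 with the block but no pool term (6 and 52), 452 without a filter on low counts (39 and 413), 9 with pairs thinned to equal depth (1 and 8) and 699 with cells weighted equally in limma (85 and 614). DESeq2 called 49 higher, and RLE size factors left 70 lower. Cell filters gave 80 outside the secretory clusters (63 lower), 62 with a top hashtag of at least 80% (8 and 54), 393 and 556 with mitochondrial limits of 10% and 50% (77 and 316, 147 and 409) and 56 at 500 UMIs and 250 genes (46 lower). Leaving out 1 mouse gave 17 to 281 called, 1 to 40 higher and 14 to 241 lower; without mouse 1, 2, 3 or 4 the counts were 17, 21, 63 and 281. Without the deepest clone cell, a setting chosen after seeing the data, 24 were higher. Of 49 called genes followed, 0 kept the call in every one of 21 alternatives and 48 lost it without the block.

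In the subsets, whose settings were also chosen after seeing the data, dropping the block left 4 calls within stem clusters and 1 outside the secretory clusters, and leaving out 1 mouse gave 9 to 16 and 40 to 129. Outside the secretory clusters the log2 changes of Defa24, Mmp7, Lyz1 and Itln1 were 0.34, 0.060, 0.68 and 1.80, against negative values in all cells.

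The secretory share difference was -10.3 percentage points at a mitochondrial limit of 50%, -26.7 at resolution 1.5, -12.8 with cells classed by marker share, and -33.7 to -26.1 with 1 mouse left out. The stem share difference was 23.9 at a top hashtag of 50%, 24.8 with HTODemux, 8.10 at a mitochondrial limit of 50%, 25.7 at 500 UMIs, and 35.3 to 55.8 with 1 mouse left out, where 3 against 3 allow no p below 0.1. The dividing share turned to 0.557 at a mitochondrial limit of 50% and ran from -16.4 to 1.11 with 1 mouse left out, 1.11 being without mouse 1. No cluster was unnamed in the main setting. Clusters were left unnamed at resolution 1.5, at a top hashtag of 50% or 80%, with HTODemux, at mitochondrial limits of 10% and 50% and at 500 UMIs. Cells of those clusters were in no named class. At 500 UMIs, 1 unnamed cluster of 241 cells had a median of 667 UMIs. The cause of these shifts was not tested. The clones' 4 to 46 cells limit every share, and 1 UMI is worth 2.34 to 12.9 CPM there, so changes of genes with few clone UMIs are the least certain.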
